A study of Mus musculus with 20 samples.

Results

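The sham control libraries give the plantaris without overload in a study of overloaded muscle. They were taken by their label (sham surgery with control virus, replicates 1 to 5) and make up 5 of the 20 RNA-seq samples of the series. The other groups of the series were not analysed here. The animals were male C57BL/6J mice aged 5 months. Under anesthesia the synergist muscles of the hindlimb were exposed and left in place, and during this sham surgery the left plantaris received 50 µL of a lentivirus carrying a scramble control and Turbo-GFP under a CMV promoter. The right plantaris of the same mice received the miR-1 mimic virus. The muscles were collected 10 days later, and the 5 libraries come from the left muscles of 5 mice. CMV is not a muscle-specific promoter, and no uninjected muscle is among the samples, so that the values describe a muscle that had been exposed and injected rather than an untouched muscle. The 5 libraries were also not uniform: most genes of muscle regeneration, and the collagens, were lowest in library 1 and higher in libraries 3 and 4.

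The plantaris is a fast plantar flexor of the lower leg. Its fibers are classed by the myosin heavy chain that drives contraction: Myh7 marks slow type I fibers, Myh2 type IIa, Myh1 type IIx and Myh4 the fastest type IIb. Fast fibers also use their own troponins, light chains and calcium pump. Type IIb fibers live largely on glycolysis, while slow fibers rely more on mitochondria. Between the fibers lie capillaries, pericytes, fibroblasts, tendon cells, nerve, resident macrophages and satellite cells, the stem cells that rebuild fibers after injury.

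The libraries held between 16083171 and 18226819 counts. Levels are given as counts per 1000000 counts (CPM), scaled with TMM factors of 0.868 to 1.11, spread as the coefficient of variation (CV, the SD divided by the mean) over the 5 libraries, and errors as SD with n = 5 unless stated. The libraries differed most along an axis from library 1 to libraries 3 and 4. On log2(CPM + 1) values of 8219 genes with a mean of at least 10 CPM, the first principal component took 68.3% of the variance and placed library 1 at 42.2, library 2 at 5.88, library 3 at -25.1, library 4 at -21.6 and library 5 at -1.42. The second took 18.9% and placed library 5 at 24.2 and the others between -12.3 and -1.03. Across those genes, which are not independent replicates, Pearson's r was highest for libraries 3 and 4, at 0.985, and next for libraries 2 and 5, at 0.970, and lowest for libraries 1 and 3, at 0.886. Library 1 was the highest of the 5 in 37.7% of those genes. The labels give no batch or RNA quality for these libraries. All of the Y-linked genes looked at (Ddx3y, Eif2s3y, Kdm5d and Uty) had at least 10.2 CPM in every library, and Xist had at most 0.362 CPM. Of 13 genes that mark heart, liver, skin and other tissues, 10 had means under 1 CPM, among them Myl7, Nppa, Alb, Ttr and Krt14. The other 3 were the cardiac genes Myh6, Tnnt2 and Myl4, with means of 2.94, 28.6 and 65.9 CPM, of which the last pair are also used by developing muscle.

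A small set of muscle genes took a large part of the counts. The most abundant gene held 3.67% ± 0.737 of all counts, the 10 most abundant 20.6% ± 2.29, the 50 most abundant 41.7% ± 3.17 and the 100 most abundant 48.1% ± 2.87. The number of genes needed to reach 50% of the counts was 77, 98, 174, 171 and 130 in libraries 1 to 5. Library 1 was the most concentrated by this measure and libraries 3 and 4 the least. By mean level, 86 genes lay at 1000 CPM or more and held 46.8% ± 2.92 of the counts. A further 1200 genes lay between 100 and 1000 CPM and held 27.7% ± 0.426, with a range of 27.1% to 28.1% over the libraries. The 6933 genes between 10 and 100 CPM held 23.0% ± 2.07, and the 5361 genes between 1 and 10 CPM 2.37% ± 0.439. In all, 13580 genes had a mean of at least 1 CPM.

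**Figure D1:**
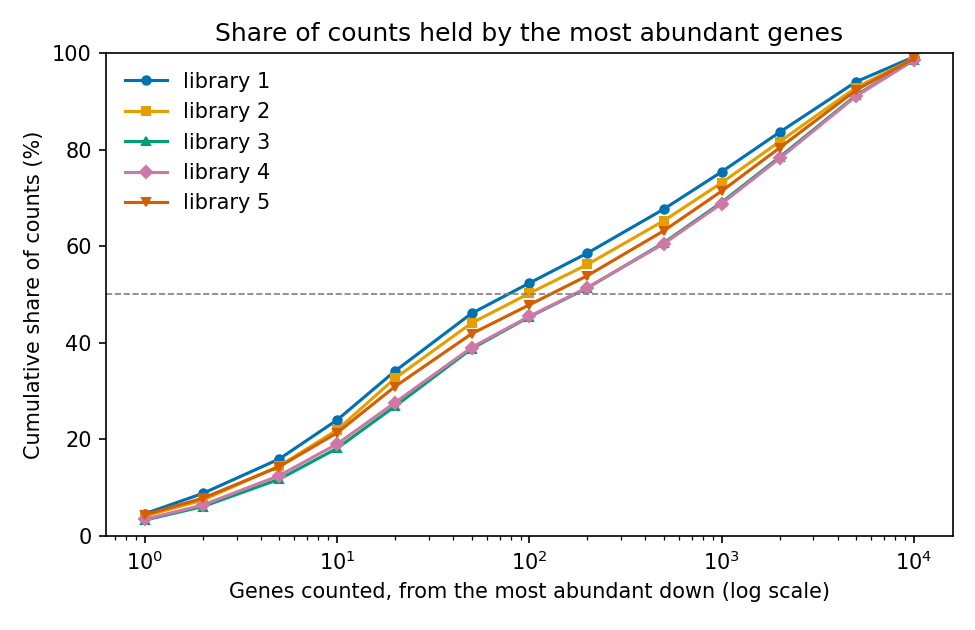
Cumulative share of counts (percent) against the number of genes counted from the most abundant down (log scale), with a line for each of the 5 sham control libraries and a dashed line at 50%. Library 1 crosses 50% at 77 genes and library 3 at 174 genes.

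The 25 genes with the highest mean CPM held 33.4% ± 3.36 of the counts. They were genes of contraction, calcium handling and energy supply almost throughout. Contractile members were Myh4, Acta1 (skeletal alpha-actin), Tpm1 and Tpm2 (tropomyosins), Tnnt3 and Tnni2 (fast troponins T and I), Myh1, Ttn (titin, the elastic filament of the sarcomere), Myl1 and Mylpf (light chains), Actn3 (the fast-fiber alpha-actinin) and Neb (nebulin). Calcium was represented by Atp2a1, the fast calcium pump SERCA1, and by Pvalb, the parvalbumin that buffers calcium in fast fibers. Aldoa, Ckm (muscle creatine kinase) and Pygm (muscle glycogen phosphorylase) stood for glycolysis and energy buffering. Genes of the mitochondrial genome gave mt-Co1, mt-Cytb, mt-Nd1, mt-Nd4, mt-Nd2 and mt-Nd5, which together held 9.35% ± 1.81 of the counts. The remaining 2 were ENSMUSG00000106106, with 9190.3 ± 1669 CPM and no symbol in the table of gene names used, and an entry that an older annotation names mmu-mir-689-2, a hairpin 57 bases long with 6067 ± 981 CPM.

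Levels by library, on the TMM scale, showed which of these genes moved together. Library 1 had the lowest TMM factor, 0.868, which raises its CPM against a scaling by library totals, so that the order of libraries depends in part on the scaling. Myh4 had 52461, 34084, 19053, 25524 and 34126 CPM in libraries 1 to 5. Library 1 was the highest and library 3 the lowest, a 2.75-fold span. Acta1 had 36019, 34767, 29554, 30762 and 29063 CPM and had the lowest CV of the 25, 9.87%. Atp2a1 had 24214, 19362, 14753, 15733 and 18217 CPM, again with library 1 on top and libraries 3 and 4 at the bottom. Mylpf, the fast regulatory light chain, had 7590.4, 12101, 7755, 7622 and 7814 CPM. Library 2 lay alone above the others, which lay between 7590.4 and 7814 CPM. Pvalb showed the same leader, with 11007, 13912, 7481, 7277 and 10967 CPM. Myh1 ran the other way from Myh4, at 12905, 10663, 17929, 13889 and 8174 CPM, highest in library 3 and lowest in library 5. The 25 genes had CVs between 9.87% and 38.0%, against 0.322% or less from counting alone. RefSeq places another gene over part of several of them, Septin1 at Mylpf, Rabep2 at Atp2a1, Prr33 at Tnnt3, the antisense Myhas at Myh1 and Car9 at Tpm2, and with the strand setting not given, reads of these pairs cannot be told apart with certainty.

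**Figure D2:**
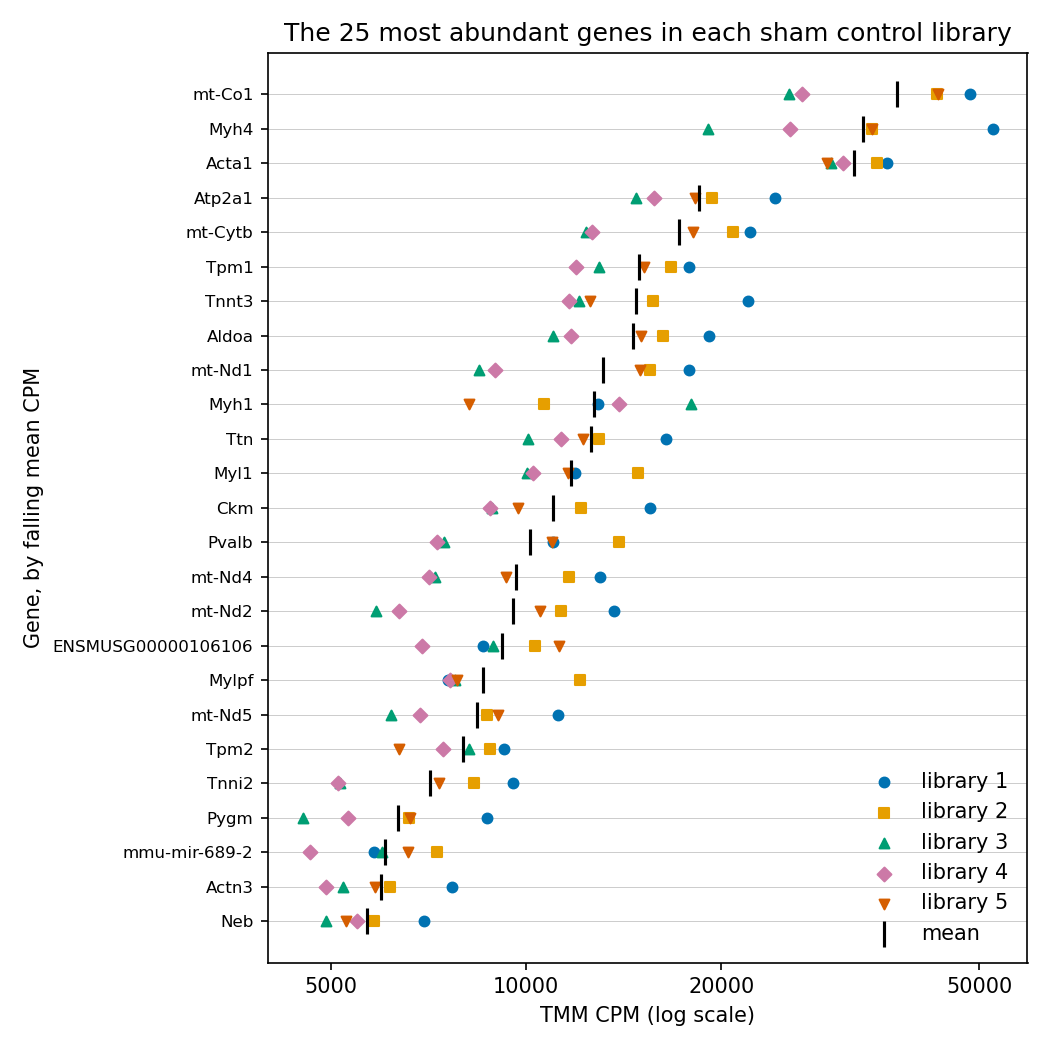
TMM CPM (log scale) of the 25 most abundant genes, with a symbol for each of the 5 sham control libraries and a black bar at the mean. On this scale library 1 is the highest in 19 of the 25 rows and library 3 the lowest in 12, with Myh1 (17929 CPM in library 3) as an exception. The order depends in part on the scaling: by share of all counts mt-Co1 is highest in library 5, at 4.33% against 4.19% in library 1.

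Counts favor long transcripts, so the order of the genes was also taken per kilobase of exon. On that scale mt-Co1 had 24144 ± 6808 CPM per kb, Acta1 22153 ± 2185, mt-Cytb 15042 ± 3964, mt-Nd1 13738 ± 4378, Tnnt3 10986 ± 3206, Pvalb 9729.8 ± 2671 and Mylpf 9691 ± 2229. The first pair differed by less than either SD, and so did mt-Cytb and mt-Nd1, and Pvalb and Mylpf. Myh4, second by counts, came at rank 14 with 5474 ± 2081 CPM per kb. Ttn, at 12602 ± 2411 CPM by counts, had 108 ± 20.6 CPM per kb. The short entry mmu-mir-689-2 came first per kilobase, at 106434 ± 17215 CPM per kb, a value that rests on its length of 57 bases.

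Among the adult myosin heavy chains, the IIb gene Myh4 was the most abundant and the slow gene Myh7 the least. Myh4 made up 63.4% ± 13.1 of the counts on Myh4, Myh1, Myh2 and Myh7, Myh1 25.9% ± 10.0, Myh2 10.6% ± 3.01 and Myh7 0.175% ± 0.170. Per length of transcript the shares were 65.2% ± 12.9, 25.4% ± 10.2, 9.27% ± 2.72 and 0.128% ± 0.125. By library, the Myh4 share was 72.8, 68.8, 43.8, 56.5 and 74.9%, the Myh1 share 17.9, 21.5, 41.2, 30.7 and 17.9%. Libraries 1, 2 and 5 lay close together and library 3 stood lowest for Myh4, with a Myh1 share almost as large. Leaving out a library moved the mean Myh4 share between 60.5% and 68.3%. The 95% Wilson interval of each of these shares, and of the mitochondrial shares, was at most 0.108 percentage points to either side, which covers counting error only, since reads carry no molecular identifiers here. In a whole muscle, fewer fibers or cells of a type and less RNA per cell cannot be told apart. The adult myosin genes lie side by side on chromosome 11, apart from Myh7, and share sequence: of all 50-base windows, 15.7% of Myh4, 21.5% of Myh1, 22.7% of Myh2 and 17.5% of Myh7 occur elsewhere in the genome, so that part of their reads could be assigned to another member or to none.

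Slow and developmental isoforms were low and uneven. Myh7 had 19.7, 159, 170.2, 48.1 and 13.5 CPM in libraries 1 to 5, high in libraries 2 and 3 and low in 1 and 5. Myh3, the embryonic myosin, had 10.3, 54.9, 306, 264 and 14.0 CPM and Myh8, the neonatal myosin, 9.55, 82.8, 264, 220.4 and 32.9 CPM. Libraries 3 and 4 were high for both developmental genes, while Myh7 in library 4 was closer to the low libraries. The other members of the list, Myh6 (cardiac), Myh7b (a slow relative) and Myh13 (extraocular), had means of 2.94, 4.85 and 5.38 CPM. Myh3 and Myh4 lie in the same gene cluster, and their promoters are shown because the pair spans the contrast between a developmental gene that differed 29.8-fold between libraries and the leading adult gene. Each run covers 250 bases before to 50 bases after the RefSeq start site in GRCm38.p6, 5′ to 3′ on the gene's strand, with TATAAA on either strand in capitals. Myh4 lies at chr11:67237562-67237861 on the plus strand with 3 matches, and Myh3 at chr11:67078050-67078349 on the plus strand with 1. TATAAA occurs in 13.6% of all 32851 such windows.
Myh4: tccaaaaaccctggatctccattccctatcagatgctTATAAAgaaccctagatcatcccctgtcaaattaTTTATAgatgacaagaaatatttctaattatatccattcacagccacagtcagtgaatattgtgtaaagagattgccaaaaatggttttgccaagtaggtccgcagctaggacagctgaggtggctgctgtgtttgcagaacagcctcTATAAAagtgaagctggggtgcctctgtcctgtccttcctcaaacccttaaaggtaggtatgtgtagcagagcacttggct
Myh3: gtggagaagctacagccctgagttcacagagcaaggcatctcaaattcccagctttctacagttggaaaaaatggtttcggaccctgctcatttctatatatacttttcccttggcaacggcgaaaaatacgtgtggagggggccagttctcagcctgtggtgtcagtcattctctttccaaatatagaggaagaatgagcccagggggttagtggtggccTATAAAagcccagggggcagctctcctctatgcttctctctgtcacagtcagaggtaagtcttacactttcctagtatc

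In 5 of 8 pairs of a slow and a fast isoform the fast gene took nearly all counts, the exceptions being troponin C, myosin binding protein C and alpha-actinin. Counts on slow troponin T (Tnnt1) were 0.733% ± 0.622 of those on Tnnt1 and the fast Tnnt3, with 0.208, 0.802, 1.71, 0.770 and 0.176% in libraries 1 to 5. Troponin I (Tnni1 with Tnni2) gave 1.21% ± 1.14, with 0.113, 0.953, 2.92, 1.75 and 0.340%. Both slow troponin shares rested in large part on library 3, and their means without it were 0.489% and 0.788%. The slow share was 1.43% ± 0.883 for the calcium pumps (Atp2a2 with Atp2a1), 2.04% ± 1.22 for the calsequestrins that store calcium (Casq2 with Casq1) and 2.62% ± 0.573 for the regulatory light chains (Myl2 with Mylpf). Library 3 had the highest slow share in the first 4 of these pairs and library 1 in the light chains. Myosin binding protein C, which steadies the thick filament, was split evenly. Mybpc1, named the slow form, took 51.7% ± 2.76 of the counts on Mybpc1 and the fast Mybpc2, with 49.7, 52.3, 54.95, 53.5 and 48.2% by library. Mybpc2 itself had 5668, 4509, 3332, 3611 and 4184 CPM. Actn2, the alpha-actinin found in all fibers and so no slow isoform in the strict sense, took 23.1% ± 6.34 of the counts on Actn2 and the fast Actn3, with 17.5, 20.5, 30.6, 29.2 and 17.8%. Troponin C went the other way, at 93.7% ± 6.44 for the slow Tnnc1, with few counts on the fast gene Tnnc2. Tnnc2 had 0.920, 1.50, 1.00, 1.01 and 1.03 CPM, while its partners in the fast troponin complex, Tnnt3 and Tnni2, had 10986 ± 3206 and 4743 ± 1304 CPM per kb against 1.37 ± 0.292 for Tnnc2. No 50-base window of Tnnc2 occurs elsewhere in the genome, and RefSeq places no other gene over it. The Tnnc2 value, and with it the troponin C share, is reported as uncertain.

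Most genes of the slow list had larger CVs than those of the fast list. The list of slow sarcomere genes holds thin filament and light chain genes, Mybpc1 and, though all fibers use it, Actn2. Its 9 members, all with a mean of at least 10 CPM, had a median CV of 51.6%, with 5 members over 50%, and the 7 genes of the fast list with a mean of at least 10 CPM a median of 21.4% with none over 50%, beside a median of 16.1% and a share of 3.50% over 50% among all genes at that level. Of the slow list, 6 lay above the highest CV of the fast ones, 29.2%. Myl2 and Actn2, at 28.9% and 23.1%, lay among the fast genes, and Mybpc1, at 15.8%, below all of them. Tnnt1 had 45.8, 127, 209.7, 90.5 and 22.1 CPM and Tnni1 10.8, 79.9, 155, 91.2 and 25.1 CPM, both highest in library 3. Myl3, an essential light chain of slow and cardiac muscle, had 159, 176, 74.5, 39.4 and 104 CPM and was highest in library 2. Mybpc1, whose product is named slow myosin binding protein C, was abundant in every library at 4531 ± 717 CPM. Myh7 took only 0.175% ± 0.170 of the adult myosin counts, and the Mybpc1 level is not read as a measure of slow fibers. Sln, which encodes sarcolipin, an inhibitor of the calcium pump, had 3.25, 29.0, 66.8, 39.5 and 13.1 CPM. Pln, its relative phospholamban, had at most 0.983 CPM. Casq1, at 3213, 3943, 2938, 2886 and 3294 CPM, and the release channel gene Ryr1, at 3472, 2599, 2966, 2859 and 2399 CPM, varied less, with CVs of 13.0% and 14.3%. Myom2, an M-band protein that links thick filaments, was the steadiest of the 14 sarcomere scaffold genes at that level, with 1500.1, 1265, 1346, 1306 and 1255 CPM and a CV of 7.45%. Tcap, the titin cap of the Z-disc, had 3915, 2513, 2312, 2147 and 2148 CPM, with library 1 apart from the other 4.

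**Figure D3:**
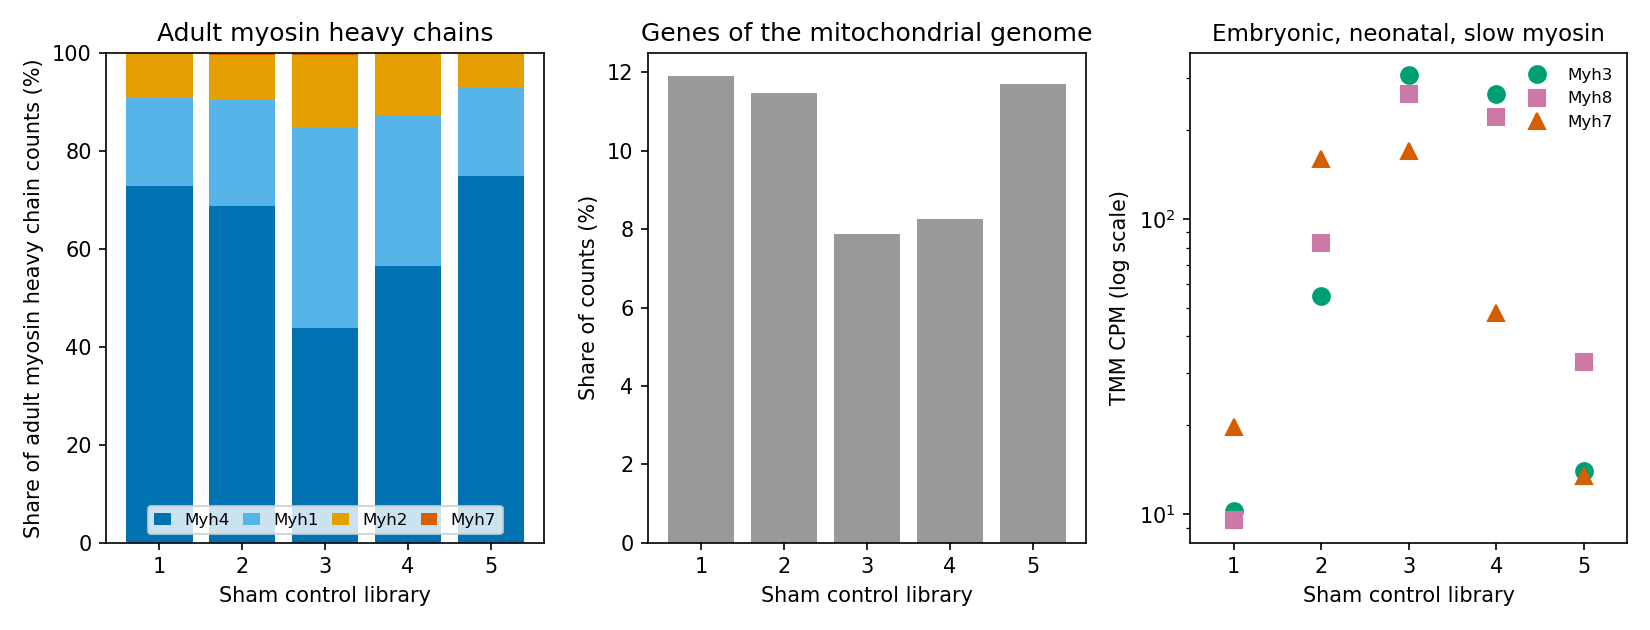
Left, share of adult myosin heavy chain counts (percent) taken by Myh4, Myh1, Myh2 and Myh7 in each sham control library. Middle, share of all counts (percent) on genes of the mitochondrial genome. Right, TMM CPM (log scale) of Myh3, Myh8 and Myh7. Libraries 3 and 4 have the lowest Myh4 and mitochondrial shares (7.89% and 8.25%) and the highest Myh3 and Myh8 levels.

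Genes of the mitochondrial genome took 10.2% ± 2.00 of the counts, with 11.9, 11.5, 7.89, 8.25 and 11.7% in libraries 1 to 5. Libraries 1, 2 and 5 were high and libraries 3 and 4 low, with no value in between. Messenger RNAs made up 9.82% ± 1.86, the ribosomal RNAs 0.405% ± 0.160 and the 22 transfer RNAs 0.0247% ± 0.00491. Library 5 had the largest ribosomal share, 0.642%, against 0.256% in library 3. The 13 messenger RNAs were counted very unevenly. The 7 genes mt-Nd1, mt-Nd2, mt-Nd4, mt-Nd5, mt-Nd6, mt-Co1 and mt-Cytb had between 4602 and 24144 CPM per kb. The other 6, mt-Co2, mt-Co3, mt-Atp6, mt-Atp8, mt-Nd3 and mt-Nd4l, had between 3.25 and 478 CPM per kb and together 0.0716% ± 0.0154 of the counts. For those low genes 99.0% (mt-Nd3) to 100% (the others) of all 50-base windows also occur in nuclear DNA, most often on chromosome 1, while the share was 51.1% for mt-Co1, 62.2% for mt-Nd4 and 0% for mt-Nd1, mt-Cytb and mt-Nd6. How reads with several alignments were counted is not given in the sources used here, and its part in these levels was not tested. The levels of these 6 genes, and the total mitochondrial share, are reported as uncertain for that reason. mt-Nd6 is transcribed from the strand opposite to its neighbours, and its 7663 ± 1452 CPM per kb cannot be separated from reads of the other strand without the strand setting, which is not given either.

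Nuclear genes of metabolism were also highest in library 1 and lowest in library 3 or 4 in nearly every case. Of the 18 glycolysis and energy buffer genes, 16 were highest in library 1, and 17 were lowest in library 3 or 4. For the 21 oxidative genes with a mean of at least 10 CPM these counts were 20 and 20. Over all 8219 genes at that level, 37.7% were highest in library 1 and 46.5% were lowest in library 3 or 4. The glycolysis list summed to 75951, 64258, 44890.4, 47951 and 56919.9 CPM and the oxidative list to 20281, 15857, 13043, 11984 and 14051 CPM. Pfkm, which encodes the rate-controlling phosphofructokinase of muscle, had 4574, 3503, 2526, 2757 and 3431 CPM. Cs, the citrate synthase of the Krebs cycle, had 1059, 877, 647, 634 and 712 CPM. Acadm, an enzyme of fatty acid oxidation, had 489, 344, 209, 211 and 328 CPM, and Lpl, the lipase that takes fat from the blood, 1050.1, 664, 384, 421 and 768 CPM. In each of these library 1 was the highest and libraries 3 and 4 the lowest. Mb, which encodes myoglobin, departed from this, at 3856, 3199.7, 3767, 2786 and 2580.5 CPM. Gapdh had 168, 1030.1, 270.3, 889.7 and 531 CPM, a CV of 65.1% in an order of libraries unlike that of the other glycolysis genes. Of its 50-base windows, 85.6% occur elsewhere in the genome, and its value is reported as uncertain. Pdk4, which restrains glucose oxidation in fasting, had 428, 214, 147, 302 and 485 CPM, highest in library 5.

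Markers of non-muscle cells were found in all libraries. Apart from Des and Car3, which fibers also express, the most abundant were the collagen genes Col3a1, Col1a2 and Col1a1. The lowest list sums, as means over the libraries, were 29.1 CPM for neutrophils and mast cells, 58.9 CPM for the 3 erythroid genes found and 60.0 CPM for T, B and NK cells. Of 104 marker genes in the cell type lists, 88 had a mean of at least 1 CPM and 61 a mean of at least 10 CPM. Endothelial markers were the steadiest by median CV. All 12 had a mean of at least 10 CPM, and they summed to 874, 834, 632, 786 and 745 CPM in libraries 1 to 5, with a median CV of 14.5%, the lowest of the cell type lists. Pecam1, the endothelial adhesion molecule CD31, had 83.8, 87.7, 84.9, 105 and 80.0 CPM and Cdh5, the cadherin of endothelial junctions, 79.4, 81.9, 79.9, 82.4 and 60.5 CPM, lower in library 5 than in the others. Kdr, a VEGF receptor, was highest in library 1, at 65.4, 52.7, 41.6, 44.3 and 41.5 CPM. The 10 pericyte and smooth muscle markers, 7 of them at 10 CPM or more, summed to 752, 704, 589, 630.2 and 692 CPM. Rgs5 and Abcc9, both pericyte markers, had 278 ± 54.0 CPM and 199 ± 43.1 CPM, and Acta2, the actin of smooth muscle, 65.1, 86.2, 133, 119 and 90.4 CPM, highest in library 3. Tagln and Cnn1, which encode contractile proteins of smooth muscle, had means of 0.588 and 2.09 CPM. RefSeq places Pcsk7 over part of Tagln, and with the strand setting and the handling of shared reads not given, the Tagln value is reported as uncertain.

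By summed CPM, which the collagens dominate, matrix-producing cells showed the widest range of the cell type lists that had members at 10 CPM or more. By the members' median log2 ratio to the mean of the 5 libraries, they ran from -0.92 in library 1 to 0.30 in library 4, less far than macrophage markers (-1.59 in library 1 to 0.52 in library 4) or tendon markers (-1.37 in library 1 to 0.71 in library 3). Fibroblast and fibro-adipogenic progenitor markers, 12 genes all at 10 CPM or more, summed to 2157, 6114, 11319, 10889 and 8852 CPM, 5.25-fold from library 1 to library 3. Col3a1, a fibrillar collagen of loose connective tissue, had 283, 1749, 3899, 4568 and 3519 CPM and Col1a1, the main collagen of tendon and scar, 137, 958, 2892, 2197 and 1153 CPM. Both were lowest in library 1 by far, and the highest was library 4 for the former and library 3 for the latter. Without library 1 their CVs went from 62.5% to 35.1% and from 73.8% to 50.5%. Pdgfra, the receptor that defines fibro-adipogenic progenitors, had 20.7, 37.3, 31.3, 42.7 and 47.3 CPM and spanned only 2.28-fold. Dcn, a collagen-binding proteoglycan of fibroblasts, had 366, 645, 561, 638 and 794 CPM, and Smoc2 67.6, 74.7, 63.1, 59.5 and 63.7 CPM with no such order. The members of this list did not move as a block: Gsn, also expressed by muscle, was highest in library 1 at 813 CPM. The 8 tendon markers, 7 of them at 10 CPM or more, summed to 278, 757, 1093, 772 and 499 CPM. Tnmd, a membrane protein of tendon cells, had 12.3, 58.5, 119, 77.7 and 43.5 CPM, Scx, the tendon transcription factor, 10.5, 17.8, 30.5, 16.6 and 15.1 CPM and Thbs4, a matrix protein of the myotendinous junction, 133, 377, 564, 408 and 241 CPM, each highest in library 3 and lowest in library 1.

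Macrophage markers were present in every library and lowest in library 1. The sum of the 12 genes was 255, 639, 813, 1047 and 950.3 CPM, and 9 of the 10 members with a mean of at least 10 CPM were lowest in library 1, against 25.2% of all genes at that level. Lyz2, the lysozyme of myeloid cells, had 112, 285, 397, 528 and 511 CPM, C1qa, a complement component made by tissue macrophages, 21.5, 64.1, 67.3, 78.6 and 74.5 CPM and Mrc1, the mannose receptor CD206, 12.4, 42.8, 40.4, 59.8 and 52.0 CPM. Cd163, a scavenger receptor of resident macrophages, differed from these, at 12.4, 12.0, 9.56, 11.5 and 14.6 CPM. Lymphocyte genes were scarce: 3 of the 12 T, B and NK cell markers had a mean of at least 1 CPM. Ighm, the IgM heavy chain, made up most of their sum, with 47.0, 42.5, 30.8, 28.2 and 103 CPM, highest in library 5. Cd3e, Cd8a and Nkg7 had means of 3.50, 0.580 and 0.899 CPM. None of the 9 neutrophil and mast cell genes reached a mean of 10 CPM. S100a8 had 0.212, 4.16, 0.200, 17.7 and 2.29 CPM and Csf3r, the G-CSF receptor, 0.990, 4.97, 7.41, 25.6 and 4.34 CPM, both highest in library 4. Ly6g, a defining marker of neutrophils, had no count in any library, which allows up to 3 counts in each, or 0.150 to 0.212 CPM, by counting error alone. Of the 9 Schwann cell and nerve markers, 4 reached 10 CPM. Sox10, the Schwann cell transcription factor, had a mean of 0.585 CPM. Of the 8 adipocyte genes, 7 had a mean of at least 1 CPM and 3 of at least 10 CPM. They summed to 4548, 4476, 3924, 3569 and 3472 CPM, and Car3, a carbonic anhydrase that muscle fibers also express, gave 3849 ± 474 CPM of it. Plin4, a lipid droplet protein that fibers also make, had 221, 116, 72.5, 108 and 113 CPM, highest in library 1. Cfd, which encodes adipsin, had 9.97, 15.3, 5.76, 6.80 and 27.5 CPM and Adipoq (adiponectin) 2.05, 5.09, 0.751, 1.29 and 9.53 CPM, both highest in library 5. Plin1, Cidec, Retn and Lep (leptin) had means of 2.28, 1.73, 1.41 and 0.391 CPM. The alpha-globin gene Hba-a1, a marker of blood, had 71.7, 61.4, 27.2, 40.0 and 53.6 CPM, and 2 beta-globin genes of that list were not found by name.

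Genes that define satellite cells were low in every library. Pax7, the transcription factor that defines these stem cells, had 3.11, 4.86, 4.15, 2.64 and 3.01 CPM and Myf5 1.77, 1.97, 3.80, 4.67 and 1.09 CPM. Myod1, at 27.0, 22.3, 19.6, 30.3 and 16.5 CPM, and the cadherin gene Cdh15, at 25.1, 21.0, 21.4, 25.6 and 16.3 CPM, were not highest in library 3. The sum of the list, 4757, 4159, 6176, 4498 and 3754 CPM, was nearly all Des (desmin), a fiber gene with 4577 ± 915 CPM. Of the 10 genes of the neuromuscular junction, 6 reached 10 CPM, and 0 of these had a CV over 50%, beside 3.50% of all genes at that level. Chrne, the adult epsilon subunit of the acetylcholine receptor, had 19.9, 25.2, 18.8, 16.8 and 17.1 CPM and Rapsn, which anchors that receptor, 29.9, 27.9, 24.8, 23.9 and 22.9 CPM. The fetal subunit gene Chrng had 0, 1.21, 10.2, 2.81 and 0.482 CPM, highest in library 3.

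Genes of muscle regeneration were lowest in library 1 and mostly highest in library 3. Of the 13 members, 10 had a mean of at least 10 CPM, and 6 of these were highest in library 3 and 9 lowest in library 1, against 18.7% and 25.2% of all genes at that level. Their median log2 ratio to the mean of the 5 libraries was -2.20, -0.11, 0.91, 0.47 and -0.54. Myog, the transcription factor of terminal differentiation, had 3.47, 14.3, 26.2, 20.7 and 5.49 CPM, Mymk (myomaker, needed for myoblast fusion) 0.212, 4.74, 18.8, 9.22 and 1.15 CPM and Runx1, which rises in denervated and regenerating fibers, 2.83, 13.7, 32.2, 22.2 and 14.1 CPM. Ankrd1, a stress-responsive ankyrin repeat protein, had 11.7, 51.4, 88.9, 109.6 and 43.1 CPM and Actc1, the cardiac actin expressed in young fibers, 112, 592, 558, 346 and 315 CPM, with library 2 on top. The cardiac genes Myl4 and Tnnt2, which developing muscle also uses, had the same order of libraries as Myog and Mymk, unlike Runx1, Ankrd1 and Actc1. Myl4 had 7.29, 56.3, 141, 98.1 and 27.4 CPM and Tnnt2 3.40, 23.0, 65.7, 41.8 and 9.23 CPM. Beside this, the macrophage, fibroblast and tendon markers were lowest in library 1, and the mitochondrial share was lowest in libraries 3 and 4. The part of these in the differences was not tested.

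**Figure D4:**
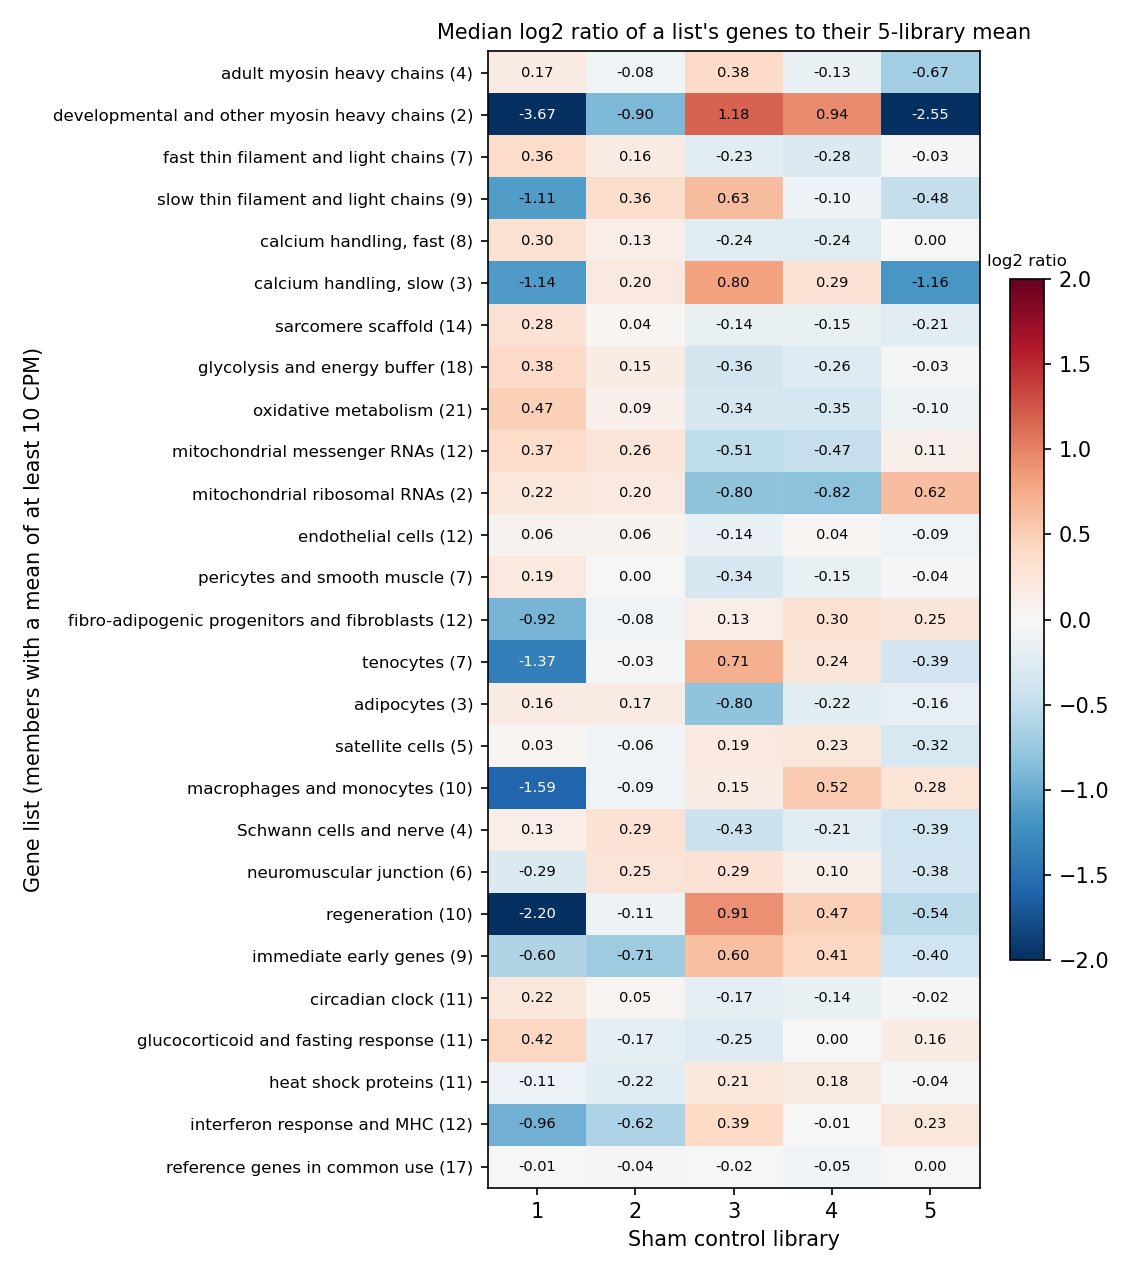
Median log2 ratio of each list's genes to their mean over the 5 sham control libraries, for genes with a mean of at least 10 CPM (their number in brackets), as printed values and as colors that are capped at the ends of the scale. The regeneration genes run from -2.20 in library 1 to 0.91 in library 3, and the endothelial markers stay between -0.14 and 0.06.

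Genes that respond within hours were uneven in part. The 15 immediate early genes summed to 474, 302, 648, 514 and 336 CPM, and 4 of the 9 with a mean of at least 10 CPM had a CV over 50%, beside 3.50% of all genes at that level. Fos, a transcription factor induced by stimulation, had 18.3, 11.1, 60.6, 37.3 and 9.65 CPM, Egr1 13.1, 13.3, 42.3, 24.1 and 10.7 CPM and Atf3 11.3, 13.9, 50.6, 34.7 and 15.2 CPM, each highest in library 3 and second in library 4. Nr4a1, an orphan receptor induced by contraction, was highest in library 1, at 246, 99.6, 186, 161 and 124 CPM. Of the 11 clock genes with a mean of at least 10 CPM, 0 had a CV over 50%, near the 3.50% of all genes, and their CVs ran from 10.5% to 37.4%. Arntl, which encodes the clock activator BMAL1, had 32.5, 27.9, 22.2, 18.2 and 33.9 CPM, Nr1d1, its repressor, 138, 90.8, 80.9, 69.6 and 87.7 CPM and Dbp, a clock output, 36.6, 32.7, 28.0, 27.5 and 18.3 CPM. The atrophy ligase genes were both highest in library 1 and second in library 5, Fbxo32 with 354, 236, 208, 176 and 319 CPM and Trim63 with 200.3, 129, 113, 112 and 182 CPM. Cdkn1a, a cell cycle inhibitor, had 19.6, 23.7, 60.8, 43.6 and 24.2 CPM, highest in library 3. The heat shock list summed to 3374, 3264, 3436, 3410.2 and 3174 CPM, a CV of 3.30% on the TMM scale. As a share of all counts the list took 0.335% ± 0.0394, highest in library 4 and lowest in library 1. The sum is carried by its abundant members. The 11 genes taken singly had a median CV of 21.8%, from 10.7% to 58.3%, against 16.1% over all genes. Of these 11, 6 were highest in library 3. Hspa1b, an inducible HSP70 gene, had 7.43, 6.65, 24.7, 16.4 and 9.83 CPM.

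Over all 8219 genes with a mean of at least 10 CPM, the median CV was 16.1%, and 6.20% and 44.5% marked the lowest and highest 5%. Counting alone would give a median of 4.33%. In all, 288 genes, or 3.50%, had a CV over 50% and 191, or 2.32%, a CV under 5%. At the wide end, 217 of those 288 genes (75.3%) were lowest in library 1 and 149 (51.7%) were highest in library 3. Among all genes at that level the shares were 25.2% and 18.7%. The 288 genes were picked by CV from the same values, so the counts are a description. Without library 1, the number over 50% was 135, and without library 2, 3, 4 or 5 it was 373, 306, 343 and 342. The number under 5% became 482, 296, 325, 276 and 378 without libraries 1 to 5 in turn.

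**Figure D5:**
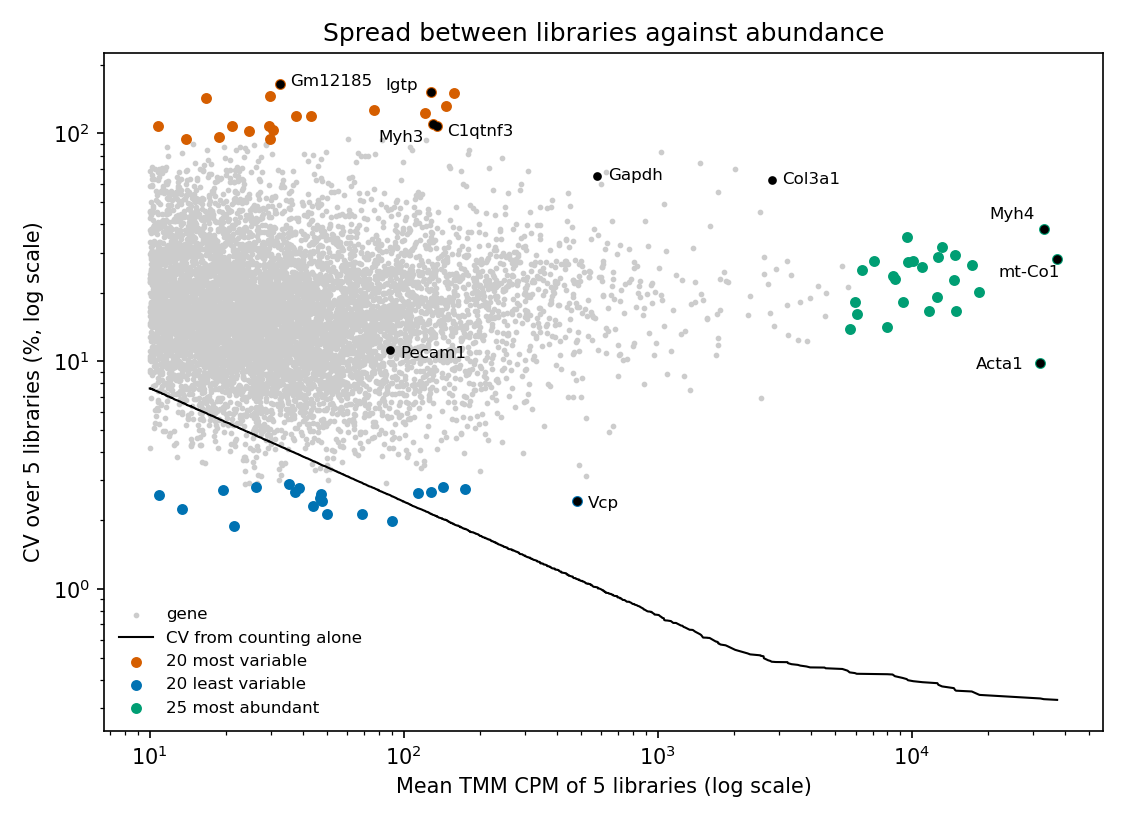
CV over the 5 sham control libraries (percent, log scale) against mean TMM CPM (log scale), with a grey point per gene with a mean of at least 10 CPM, colored points for the 20 most variable, 20 least variable and 25 most abundant genes, and a black line for the median CV that counting alone gives. Igtp lies at 151%, Vcp at 2.42% and Acta1 at 9.87%.

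The most variable genes were led by interferon-inducible genes, with library 5 far above the others. Of the 20 genes with the largest CV, 15 were highest in library 5, against 18.5% of all genes at that level, and the other 5 in library 3. This ranking used the same values, so the count is a description. Gm12185, a member of the interferon-inducible GTPase family, had 16.0, 1.68, 5.31, 11.5 and 128 CPM, a CV of 165% against 4.32% from counting alone. Igtp, an immunity-related GTPase that acts on vacuoles of intracellular pathogens, had 63.1, 16.5, 30.4, 56.9 and 473 CPM, Irgm1, a regulator of that family, 43.1, 25.1, 23.7, 41.0 and 250.5 CPM and Irgm2 82.1, 25.4, 34.7, 81.5 and 385 CPM. Iigp1, an effector of the same family, had 83.3, 16.5, 24.1, 87.4 and 575 CPM. In each of these 5 genes library 2 or 3 was the lowest and library 5 lay far above the other 4. Guanylate-binding proteins, another family of interferon-induced GTPases, had the same leader: Gbp2 15.2, 11.8, 14.2, 19.9 and 86.2 CPM, Gbp7 22.1, 10.9, 12.8, 20.6 and 86.0 CPM and Gbp4 18.1, 12.3, 9.81, 13.4 and 69.7 CPM. Cd274, the checkpoint ligand PD-L1, had 7.22, 4.86, 4.15, 7.93 and 58.8 CPM. Gm4841, Ifi47 and F830016B08Rik were also highest in library 5, and so were ENSMUSG00000104713 and ENSMUSG00000105096, which have no symbol in the table of gene names used. Levels of these 5 in library 5 lay between 31.4 and 491 CPM. The related genes share sequence: of the 50-base windows, 14.2% of Igtp, 7.24% of Irgm2, 1.49% of Irgm1, 12.6% of Gbp4, 2.24% of Gbp7 and 1.70% of Gbp2 occur elsewhere in the genome. Cd274 overlaps Plgrkt in RefSeq. Without library 5 the CV of Igtp was 52.6%, of Gm12185 73.9% and of Gbp2 22.2%, and 5 of the 20 genes stayed among the 20 most variable. Without library 1, 15 did.

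Promoter windows of 3 of these genes are printed because they hold GAAA followed, after any 2 bases, by a second GAAA, the core of the element through which interferon signals act on promoters. It was searched on both strands of the same 300-base windows and is in capitals. Of the 20 most variable genes, 13 had a window in the RefSeq table and 7 of these held it (Gbp2, Gbp7, Gm12185, Igtp, Irgm1, Irgm2 and Mmp13), while Ifi47 and Cd274 did not. Among all 32851 windows, 3.44% held it. A match describes these letters and not a bound site. Igtp lies at chr11:58199306-58199605 on the plus strand, Irgm1 at chr11:48871371-48871670 on the minus strand with 2 overlapping matches, and Gbp2 at chr3:142620413-142620712 on the plus strand, where the match is on the reverse strand.
Igtp: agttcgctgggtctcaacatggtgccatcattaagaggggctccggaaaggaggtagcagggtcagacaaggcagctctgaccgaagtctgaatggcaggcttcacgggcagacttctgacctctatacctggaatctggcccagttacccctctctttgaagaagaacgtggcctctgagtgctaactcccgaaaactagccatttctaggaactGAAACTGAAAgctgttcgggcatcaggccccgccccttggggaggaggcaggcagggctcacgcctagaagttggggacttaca
Irgm1: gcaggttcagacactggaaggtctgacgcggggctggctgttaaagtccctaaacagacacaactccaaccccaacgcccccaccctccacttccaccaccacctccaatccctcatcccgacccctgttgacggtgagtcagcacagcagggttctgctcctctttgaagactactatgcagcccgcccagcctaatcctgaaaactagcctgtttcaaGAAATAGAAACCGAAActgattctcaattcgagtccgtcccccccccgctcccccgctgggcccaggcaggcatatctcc
Gbp2: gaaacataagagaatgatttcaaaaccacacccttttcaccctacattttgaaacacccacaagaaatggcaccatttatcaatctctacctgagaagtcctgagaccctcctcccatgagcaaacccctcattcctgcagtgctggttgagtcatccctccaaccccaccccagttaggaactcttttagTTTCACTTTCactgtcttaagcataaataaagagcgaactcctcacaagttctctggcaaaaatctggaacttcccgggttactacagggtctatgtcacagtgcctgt

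The interferon and MHC list of 15 genes, which holds Gbp2 from the group above, did not have library 5 as its leader. Its other 14 genes summed to 911, 964, 2086, 1568 and 1548 CPM, highest in library 3. Of the 11 of them with a mean of at least 10 CPM, 3 had a CV over 50%, beside 3.50% of all genes at that level. These were Gbp3, with 10.6, 9.66, 22.5, 13.3 and 47.8 CPM, Ifit3 and Psmb8. Ifit3, an antiviral effector, had 5.66, 8.27, 8.61, 8.21 and 25.1 CPM and Psmb8, an immunoproteasome subunit, 7.57, 7.75, 17.1, 9.79 and 24.1 CPM, both highest in library 5. The class I genes were highest in library 3 instead, H2-K1 with 205, 149, 389, 237 and 220.3 CPM and B2m with 213, 186, 436, 276 and 336 CPM, and so was Cd74, the class II invariant chain, at 124, 163, 387, 329 and 243 CPM. Beside the GTPase genes, the sum of the T, B and NK cell markers was also highest in library 5, at 53.2, 51.8, 47.9, 39.4 and 108 CPM in libraries 1 to 5, but through Ighm alone. The other 11 markers summed to 6.23, 9.31, 17.1, 11.2 and 4.64 CPM, highest in library 3 and lowest in library 5. The macrophage sum was highest in library 4. The part of these cells in the interferon gene levels was not tested. Ifng itself, the gene of interferon gamma and named here after its values were seen, had at most 0.422 CPM.

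Secreted and matrix proteins made up most of the 5 genes among the 20 that were highest in library 3. C1qtnf3, a secreted protein of the C1q and TNF family, had 1.91, 44.9, 372, 164 and 91.4 CPM, Mmp13, a collagenase, 0.566, 10.2, 59.1, 23.7 and 12.1 CPM, Tnn, the matrix protein tenascin N, 0.141, 2.83, 43.5, 28.5 and 18.3 CPM and Dlk1, an imprinted Notch-family ligand, 0.283, 6.88, 30.3, 25.6 and 6.57 CPM. Myh3 was the last. All 5 were lowest in library 1, where Mmp13, Tnn and Dlk1 had under 1 CPM, and their CVs without library 5 lay between 91.7% and 114%. With library 5 left out, the 20 most variable genes included other matrix genes, named here after their values were seen. Postn, the matrix protein periostin of healing tissue, had 21.9, 413, 2169.8, 1444 and 1080.0 CPM in libraries 1 to 5, Lrrc15, a surface protein of activated fibroblasts, 0.0707, 4.22, 51.9, 31.2 and 40.8 CPM and Cthrc1, a protein of wound matrix, 0.424, 30.8, 123, 80.7 and 90.7 CPM. Their CVs over 4 libraries were 96.5%, 111% and 92.0%. Imprinted genes that are high in growing muscle, also named after their values were seen, were H19 with 547, 1959, 3922, 2824 and 825 CPM, Meg3 with 27.9, 104, 351, 317 and 94.4 CPM and Mest with 8.77, 39.0, 152, 79.5 and 24.0 CPM. H19 was the gene at rank 50 by mean CPM, and all 3 were highest in library 3 and lowest in library 1.

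At the other end, the 20 least variable genes had CVs from 1.90% to 2.88%. Pmm2, a phosphomannomutase of protein glycosylation, had 21.8, 21.3, 21.8, 21.1 and 20.9 CPM. Akap6, a scaffold for protein kinase A in muscle, had 92.6, 90.6, 87.7, 89.5 and 90.4 CPM, Rtcb, the RNA ligase that splices transfer RNAs, 50.2, 50.4, 48.8, 48.5 and 50.8 CPM and Copa, a coat protein of Golgi vesicles, 169, 172, 174, 173 and 182 CPM. The rest were the unnamed ENSMUSG00000116564 and Aff4, Tyw1, Snx9, Fbxo11, Rraga, Efnb2, Anapc1, Dusp3, Dhx36, Fkbp1a, Wdfy3, Gtf3c4, Wdr26, G6pc3 and Vcp. For 15 of the 20, the CV was below the value that counting alone gives on average, so that their order is within counting error. With CPM on library totals instead of TMM, 0 of the 20 stayed among the 20 least variable. In all, 127 of the 8219 genes lay below it. Vcp, an ATPase that extracts proteins for degradation, was the most abundant of the 20 and lay above its counting CV, with 496, 489.6, 476, 466 and 480.0 CPM and 2.42% against 1.10%. Of its 50-base windows, 75.9% occur elsewhere in the genome. At the thresholds, Dlk1 as the last of the 20 most variable and Mest as the next gene both had a CV of 94.6%, and G6pc3 as the last of the 20 least variable had 2.88% against 2.90% for Ubr7.

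Reference genes in common use differed widely in this respect. The 17 with a mean of at least 10 CPM had a median CV of 22.1%, above the 16.1% over all genes at that level. After Vcp came Rplp0, a ribosomal stalk protein, at 878, 995, 879.7, 822 and 824 CPM and 7.98%, and Tbp, the TATA-binding protein, at 10.8, 8.85, 9.21, 10.6 and 10.7 CPM and 9.17%. Actb, at 321, 435, 551, 581 and 447 CPM, Tubb5, at 42.8, 74.8, 129, 120.0 and 95.1 CPM, and Ppia, at 58.4, 89.1, 153, 108 and 94.4 CPM, were lowest in library 1, with CVs of 22.1%, 37.7% and 34.2%. Ppia and Rplp0 also share 61.9% and 50.7% of their 50-base windows with other places in the genome. B2m and Gapdh had CVs of 34.7% and 65.1%.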

How the data were processed

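Total RNA was taken with TRIzol reagent and Direct-zol columns, and libraries were made with the NEBNext Ultra II RNA kit. The authors deposited raw read counts per gene for the 5 sham control libraries and for the other groups in 2 tables. The submitters' notes name FastQC 0.11.9, cutadapt 4.4, Trim Galore 0.6.10, HISAT2 2.0.5, featureCounts 1.5.0-p3 and DESeq2 1.34.0, with alignment to GRCm38. Which annotation was counted, whether by strand, and what was done with reads of several alignments is not given in the sources used here.

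Counts of the 5 libraries were scaled to CPM with TMM factors in edgeR 4.0.16 under R 4.3.3. Means, SDs and CVs were taken in Python 3.11.15 with pandas 2.3.3 and scipy 1.17.1, and CVs were summarised for genes with a mean of at least 10 CPM. The counting CV is what Poisson sampling of the reads would give. CV and rank steps were tested on simulated data. Exon lengths and 50-base windows came from the NCBIM37 genome with its GENCODE genes, matched by gene ID, and promoter windows from RefSeq GRCm38.p6. Of 54532 genes in the table, 32640 matched a symbol and an exon length, with 98.3% of the counts. Of 329 listed symbols, 327 were found.

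No column without a sample was used. No pair of libraries was a copy: chi-square per gene over the 10 pairs was 12.7 to 108. There is 1 group, so that no difference was tested and the errors measure the spread between these samples. Named genes were the 25 most abundant, the members of the gene lists, and the 20 with the largest and the 20 with the smallest CV. Values of 3 of these genes are not reported here. Any other gene is named as chosen after its values were seen. The lists and the group were chosen with earlier results of these data known. The alternatives were leaving out each library, other scalings and filters, per-length values, removal of the counting variance and the biological CV of edgeR.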

Additional observations from a re-analysis of the deposited data

Results flagged for a closer look

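A value was listed here where its highest or lowest library lay apart from the other 4, with a ratio of the gap to the nearest library to the whole range above Dixon's 95% critical value for 5 samples. Of 320 values looked at, 26 met this, 18 of them through library 5, 4 through library 1, 2 through library 2 and 2 through library 4. For independent, normally distributed values, chance alone gives about 1 in 20. The values here are not independent, since sums of lists stand beside their members. Of the 26, 14 were among the 20 most variable genes, which were picked for a wide spread. Without those genes, 12 of 301 values met it, or 3.99%. This share cannot be set against chance either, because the genes left out were picked for the spread that the rule measures.

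Interferon-inducible genes account for most of those with library 5 apart. The gap was 0.887 of the range for Gm12185, 0.898 for Igtp, 0.873 for Iigp1, 0.931 for Cd274, 0.878 for Gm4841, 0.915 for Irgm1, 0.842 for Irgm2, 0.795 for F830016B08Rik, 0.892 for Gbp2, 0.894 for Ifi47, 0.852 for Gbp7, 0.861 for Gbp4 and 0.848 for Ifit3. The unnamed ENSMUSG00000104713 and ENSMUSG00000105096 had gaps of 0.911 and 0.848. Apart from Ifit3, these genes were picked for a wide spread, so that their gaps are a description. Library 5 was also apart for Ighm, with a gap of 0.749, and with it for the sum of the T, B and NK cell markers, at 0.798. Cdh5 was lower there, with a gap of 0.860.

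Library 1 was apart for the sum of the adult myosin heavy chains, 72029, 49530.1, 43517, 45198 and 45563 CPM in libraries 1 to 5, with a gap of 0.789. It was also high for Tcap (0.793) and for Tsc22d3, a glucocorticoid-induced leucine zipper protein (0.716), which had 217, 159, 136, 147 and 152 CPM, and low for C1qa (0.747).

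Library 2 was high for the light chain Mylpf (0.950) and for Tnnc2 (0.820), whose counts were few. Library 4 was high for the sum of neutrophil and mast cell genes, 10.8, 25.8, 15.7, 74.6 and 18.8 CPM with a gap of 0.764, and for the endothelial receptor gene Tie1 (0.756), which had 27.2, 28.5, 29.1, 39.2 and 30.1 CPM.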

How the results depend on the processing

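No paired analysis was possible because the description uses 1 group and the result comes from no test. Of the summary values under their alternatives, 129 stayed within the spread between libraries, or within 1.5 times for a count, and 32 did not. For the median CV, the spread was that of its values with each library left out. Leaving out 1 of 5 libraries can hardly move a mean share by the SD of the 5. Those alternatives could therefore hardly fail, and the tally is no measure of how firm the shares are. Per exon length, the mitochondrial share was 16.4%, the shares of the 1, 10, 50 and 100 most abundant genes 19.8%, 42.4%, 60.8% and 65.7%, the number of genes that reach 50% 18 and the Myl2 share 1.21%. Apart from the Myl2 share, these values include mmu-mir-689-2, the entry of 57 bases that leads per length. Without it, an alternative chosen after seeing the data, the mitochondrial share was 20.5%, the shares of the most abundant genes 5.52%, 29.9%, 51.3% and 57.3%, and the mean number of genes that reach 50% was 47.2. Without the mitochondrial genome, the 50 and 100 most abundant genes held 37.0% and 43.1%, and 213 genes reached 50%.

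Genes with a CV over 50% numbered 1211 with a mean of at least 1 CPM, 69 with at least 50 CPM, 12627 with no filter and 163 by the biological CV of edgeR. Those under 5% numbered 73 with at least 50 CPM, 517 with the counting variance taken off and 0 by the biological CV, which shrinks values toward a trend. The median CV was 20.5% with at least 1 CPM, 46.9% with no filter and 20.1% by the biological CV. Filters change which genes are counted, so these counts describe different gene sets.

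With each library left out in turn, genes over 50% ran from 135 (without library 1) to 373 (without library 2), genes under 5% from 276 (without library 4) to 482 (without library 1) and the median CV from 13.7% (without library 1) to 17.2%. Of the 20 most variable genes, 5 remained without library 5, and of the 20 least variable 5 remained without library 1. With CPM on library totals, 19 of the 20 most variable and 0 of the 20 least variable remained, and with DESeq2 size factors 20 and 16. The library with the highest list sum changed for several lists on library totals. For the fast sarcomere and fast calcium handling lists it was library 2 instead of 1. For the sarcomere scaffold, endothelial and pericyte lists it was library 4 instead of 1. The adult myosin, glycolysis and oxidative lists kept library 1. Mean CPM of the 25 most abundant and 20 most variable genes under DESeq2 size factors and under CPM on library totals, alternatives chosen after seeing the data, stayed within the spread between libraries. For the 20 most variable genes this could hardly fail, because their SD was 94.6% to 165% of the mean, and it says nothing about their dependence on scaling. Depth limits genes near 10 CPM most, where counting makes up a larger part of the CV.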

Other observations

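Genes outside the lists, named after their values were seen, are given here as values. The proliferation genes Mki67 and Top2a were lowest in library 1 and highest in library 4, Mki67 with 2.76, 8.85, 15.1, 19.8 and 7.36 CPM and Top2a with 0.707, 5.38, 12.7, 14.0 and 7.42 CPM in libraries 1 to 5. Sparc, a matrix protein bound to collagen, had 248, 934, 1542, 1469 and 1081 CPM and Fn1, which encodes fibronectin, 76.2, 402, 1157, 911 and 576 CPM. Igf2, a growth factor of fetal muscle, had 0.920, 2.08, 5.46, 5.57 and 1.09 CPM and Fst, an inhibitor of myostatin, 5.09, 9.54, 13.0, 10.4 and 8.80 CPM. The interferon-induced chemokine genes Cxcl9 and Cxcl10 had 2.83, 2.02, 8.21, 4.78 and 15.2 CPM and 1.06, 1.56, 2.35, 2.14 and 10.8 CPM respectively, and Irf1, an interferon-induced transcription factor, 9.34, 14.5, 15.3, 16.8 and 44.1 CPM.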
